A study of Caenorhabditis elegans with 2 samples.

Results

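The regions described here are the intergenic regions of the X chromosome in a chromatin map of the protein GEI-17, a PIAS-type ligase for SUMO, in Caenorhabditis elegans, a nematode. They were chosen by position alone: the summit lay on X, in no annotated gene of any biotype, outside every promoter window (1000 bp before a protein-coding start to 200 bp after it), and more than 200 bp from any tRNA gene. This gave 1328 regions among 29937 candidate regions in all, of which 29925 were nuclear. Only the summit had to meet the rule, so the interval of a region could run into a gene. Chromatin immunoprecipitation and sequencing (ChIP-seq) was done with an antibody to GFP on whole young adults aged 64 h, in 1 group of 2 biological replicates numbered 4 and 5. All worms were of strain OP572, with the allele unc-119(tm4063) and the integrated transgene wgIs572, which carries gei-17 tagged with TY1, EGFP and 3xFLAG together with unc-119(+). The labels give pooled males and females, grown from larvae starved at the first stage after bleaching. GEI-17 was thus measured as a tagged product of a transgene in 1 line. Untagged worms were not analysed, so signal that does not depend on the tagged protein cannot be told apart at any region below. Positions are in build ce11. Regions said to pass IDR (irreproducible discovery rate) are those in the list the authors kept after that step, which weighs how well ranked lists agree. Only lists of regions were used, so the read depth behind each value is unknown.

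SUMO is a small protein that is attached to other proteins, and E3 ligases such as GEI-17 help to choose the targets. In C. elegans the X chromosomes of XX animals are bound by a dosage compensation complex related to condensin, which lowers X expression in hermaphrodites. SUMO attachment is known to be needed for that complex to assemble on X. The complex is recruited at scattered sites that share a 12-letter sequence enriched on X, and it spreads from them along the chromosome.

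Many of the highest X intergenic regions carried a sequence of that kind near their summits. The 8 letters GCGCAGGG, which form its core, lay within 150 bp of the summit of the highest region, that nearest the start of W02H3.3, at 2 places. One of these matches was preceded by TC and followed by AG, which gave the 12 letters TCGCGCAGGGAG (chrX:11094123-11094134, minus strand). The 300 bases around that summit, and around the summit upstream of xol-1, are shown from the RefSeq assembly WBcel235, the build of ce11, because they hold pairs of matches, in capitals. CCCTGCGC is the same core read on the other strand.
W02H3.3 (chrX:11094042-11094341, plus strand): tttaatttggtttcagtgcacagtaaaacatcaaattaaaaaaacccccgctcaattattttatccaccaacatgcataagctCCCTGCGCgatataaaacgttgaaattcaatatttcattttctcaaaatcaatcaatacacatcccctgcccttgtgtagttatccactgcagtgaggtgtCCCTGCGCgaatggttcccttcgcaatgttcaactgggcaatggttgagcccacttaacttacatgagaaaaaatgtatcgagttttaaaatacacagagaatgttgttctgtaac
xol-1 (chrX:8036296-8036595, plus strand): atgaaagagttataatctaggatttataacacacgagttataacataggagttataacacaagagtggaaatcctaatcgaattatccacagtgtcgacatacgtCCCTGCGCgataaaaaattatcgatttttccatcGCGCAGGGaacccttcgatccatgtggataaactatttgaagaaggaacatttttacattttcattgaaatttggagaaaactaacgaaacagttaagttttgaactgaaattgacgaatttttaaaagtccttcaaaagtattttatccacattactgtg
In the first window both matches read on the minus strand, with centres -63.5 and 37.5 bp from the summit, and both follow TC. In the second they read on opposite strands, with centres -41.5 and -7.5 bp from the summit. The gtr-1 region, whose window is not shown, also held 2 matches, with centres -4.5 and 71.5 bp from its summit. Of these, only that at -4.5 bp followed TC.

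For each of the 20 highest regions the stretch within 150 bp of the summit that shared the most letters with those 12 was found on either strand. Among the 17 regions with a pooled signal over 800, 10 shared 10 or more of the 12 letters, and these are shown first. The regions near K02D3.1 and F19H6.5 are shown after them as examples of high regions whose best stretch in that window shared 7 letters. The F19H6.5 region also held the exact core outside the window, at -165.5 bp from its summit. Each line gives 40 bases in the direction of the 12 letters, and capitals mark the letters that are the same.
W02H3.3 (chrX:11094109-11094148, minus strand, 12 of 12 letters): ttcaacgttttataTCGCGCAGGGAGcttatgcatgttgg
xol-1 (chrX:8036419-8036458, plus strand, 11 of 12 letters): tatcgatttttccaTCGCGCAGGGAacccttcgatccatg
F55G7.5 (chrX:11937441-11937480, minus strand, 10 of 12 letters): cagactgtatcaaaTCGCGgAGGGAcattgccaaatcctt
F22H10.2 (chrX:16682156-16682195, minus strand, 11 of 12 letters): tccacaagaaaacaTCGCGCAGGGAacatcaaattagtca
F20B6.9 (chrX:4209276-4209315, plus strand, 11 of 12 letters): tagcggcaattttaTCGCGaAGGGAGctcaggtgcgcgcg
fbxb-58 (chrX:1627090-1627129, plus strand, 10 of 12 letters): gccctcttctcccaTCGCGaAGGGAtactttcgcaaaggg
T27A8.7 (chrX:16056634-16056673, minus strand, 11 of 12 letters): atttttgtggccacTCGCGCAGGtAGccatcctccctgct
gtr-1 (chrX:806643-806682, minus strand, 11 of 12 letters): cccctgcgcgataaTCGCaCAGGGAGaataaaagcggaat
col-185 (chrX:13514542-13514581, plus strand, 11 of 12 letters): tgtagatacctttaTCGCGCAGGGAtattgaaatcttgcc
hlh-29 (chrX:17544502-17544541, plus strand, 10 of 12 letters): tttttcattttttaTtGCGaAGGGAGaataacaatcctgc
K02D3.1 (chrX:13700845-13700884, minus strand, 7 of 12 letters): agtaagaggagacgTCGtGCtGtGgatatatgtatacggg
F19H6.5 (chrX:12363208-12363247, plus strand, 7 of 12 letters): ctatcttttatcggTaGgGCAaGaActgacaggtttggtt
The word was taken from the W02H3.3 region after the matches had been seen, so the full agreement there follows from the choice.

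At 17 of these regions the signal stood far above most of the nuclear list. The height of a region is a signal value from peak calling that the authors deposited, whose scale is not stated, and it served to rank regions within a list. The 17 regions had pooled signals between 803 and 3469, with a median of 2238. In the replicate lists their signals lay between 357 and 1783 (median 1104) in replicate 4 and between 451 and 1746 (median 1147) in replicate 5. Of the 24 nuclear regions with a signal over 800, a boundary set after the values had been seen, 17 were X intergenic (70.8%, 95% exact interval 48.9–87.4). Of the others, 4 lay on X inside genes and outside promoter windows (highest signal 3058), 2 lay in X promoter windows (highest 2794) and 1 was autosomal, with 0 autosomal intergenic regions. X intergenic regions held 8 of the 10 highest and 17 of the 25 highest nuclear regions in the pooled list, and the same counts in each replicate list. The share then fell off: 21 of the 50 highest and 31 of the 200 highest pooled regions were X intergenic. Among all 29925 nuclear candidates 1328 were X intergenic.

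**Figure D1:**
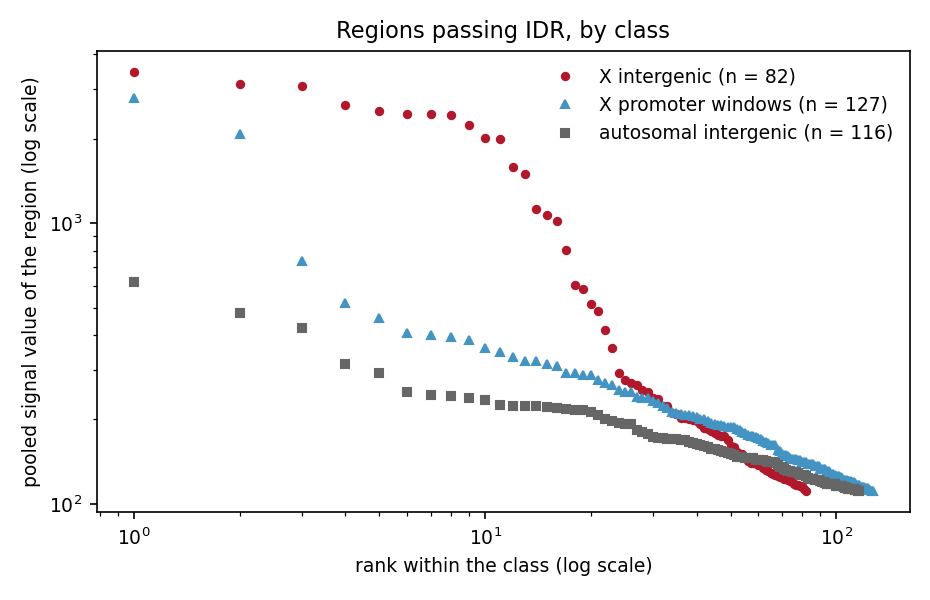
Pooled signal of every region that passed IDR in 3 classes, against its rank within the class, both on log scales; each point is 1 region. The X intergenic points stay above 800 for 17 ranks, while the highest autosomal intergenic region is at 620.

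The region with the highest signal, chrX:11092966-11095162, had signals of 1783 in replicate 4 and 1743 in replicate 5 (3469 pooled) and was 2197 bp wide. It lay between the convergent genes W04G3.11 and W02H3.3, in a stretch of 4803 bp without any gene. The next, chrX:9465209-9466798, had signals of 1469 and 1717 in replicates 4 and 5 and lay between ZK899.6 and gap-2, which encodes a Ras GTPase-activating protein. The 2 replicates ranked both among their 3 highest nuclear regions.

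The region at chrX:8035557-8037191 had signals of 1464 in replicate 4 and 1746 in replicate 5, the highest nuclear value of the replicate 5 list. Relative to the start of xol-1 its summit stood at -4867 bp, on the upstream side. xol-1 is the switch gene that sets male or hermaphrodite development according to X dosage. A second X intergenic region was also nearest to xol-1, with its summit at -1229 bp from the start. It had a pooled signal of 36.3, a signal of 15.0 in replicate 4 and no candidate in replicate 5. Among the other genes of a list for sex determination and dosage compensation, sex-1, a nuclear receptor that represses xol-1, had 1 region nearest to it (pooled signal 33.3), which did not pass IDR. For sdc-1, fox-1 and ceh-39 no X intergenic region had its nearest start there, and sex-2 was not found by that name in the annotation.

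The other high regions lay beside genes of many kinds. That at chrX:11936638-11938309 (1234 in replicate 4, 1458 in replicate 5) lay between F55G7.5 and dot-1.4, a gene of the DOT1 histone methyltransferase family. The region at chrX:13700286-13701327 (1113 and 1394 in replicates 4 and 5) lay upstream of K02D3.1, at -6044 bp from its start, with adm-2, which encodes a protein of the ADAM metalloprotease family, on its other side. The region at chrX:4208170-4210272 (1111 and 1345) lay between F20B6.9 and hpk-1, which encodes a homeodomain-interacting protein kinase.

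At the lower end of the 17, chrX:13514069-13514966 lay between the collagen gene col-185 and the cyclin-dependent kinase gene cdk-4, with signals of 471 in replicate 4 and 612 in replicate 5. The last was chrX:17544260-17544802 near hlh-29, a gene for a helix-loop-helix protein of the REF-1 family, at 357 and 451. The next X intergenic region, near B0294.3, had signals of 276 and 331 (605 pooled). Regions near srg-64, R11.4 and dpy-23, which encodes a subunit of the AP-2 clathrin adaptor, followed at pooled signals of 584, 515 and 487.

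The high regions were also wide. Among the 17 the width ran from 543 to 2197 bp, with a median of 1542 bp, and 13 were wider than 1000 bp. Most candidates have a set width: 29396 of the 30000 pooled summits had an interval of 444 bp. Of all 1328 X intergenic regions 29 were wider than that, as were 11 of 3981 regions inside X genes, 5 of 1430 in X promoter windows and 6 of 3219 autosomal intergenic regions. Wider than 1000 bp were 14 X intergenic regions, 5 inside X genes, 2 in X promoter windows and 1 autosomal intergenic region. The intervals were not all intergenic throughout. They overlapped a gene at 310 of the 1328 X intergenic regions, 22 of the 82 that passed IDR and 6 of the 20 highest. Among autosomal intergenic regions this held for 779 of 3219. The F19H6.5 region, 1790 bp wide, had its summit in a gap of 555 bp between genes. The 17 summits were spread along X from position 806682 to 17544518, with at least 186 kb and at most 2.97 Mb between neighbours.

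Most X intergenic regions were weak. The median pooled signal of all 1328 was 35.9, against 34.9 for autosomal intergenic candidates and 33.9 for all nuclear candidates. The IDR filter passed 82 X intergenic regions (6.17%, 95% exact interval 4.94–7.61). It passed 3.26% of all nuclear candidates, 3.60% of the 3219 autosomal intergenic ones (116 regions, 2.99–4.31) and 8.88% of the 1430 in X promoter windows (127 regions, 7.46–10.5). Intervals cover the counting of regions only, and no test was made because there was 1 group.

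The 82 regions had pooled signals between 111 and 3469, with a median of 190, against a median of 145 for the 116 autosomal intergenic regions. The lowest 3 inside the filter were those near got-2.2, F17H10.1 and mxl-3, at 116, 113 and 111. The highest 3 outside it were those near nhr-17, pfn-2 and gck-4, at 109.5, 109.2 and 108, so the values at the boundary differ little. The 82 were not all separate: 3 pairs had overlapping intervals and shared 1 region in each replicate list, near ZC53.1, sma-9 and R11.4.

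X offered more sequence of this kind, and the strong regions were also denser in it. The length that met the rule for position was 5.15 Mb on X (29.0% of the chromosome) and 16.4 Mb on the autosomes (19.9%). Regions passing IDR numbered 15.9 per Mb of that sequence on X (95% exact Poisson interval 12.7–19.8) and 7.06 per Mb on the autosomes (5.83–8.47). Among single autosomes the value ran from 4.47 on V to 10.1 on III. Candidates of any height numbered 258 per Mb on X and 196 per Mb on the autosomes.

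X was divided into 5 segments of equal length. The regions that passed IDR were sparsest in the middle segment: from the left end the segments held 19, 14, 8, 16 and 25 of them, or 17.9, 14.6, 8.06, 16.7 and 21.3 per Mb of eligible sequence. The share of candidates that passed was 4.23% in the middle segment (95% exact interval 1.84–8.17) and 4.98% to 9.23% in the others. The intervals of all segments overlapped. Candidates of any height were also sparsest in the middle segment, at 190 per Mb against 231 to 305 per Mb in the others. The high regions did not follow that order: the middle segment held 3 of the 17, and the one to its left 1. The highest region of each segment, from left to right, was that near fbxb-58, F20B6.9, ZK899.6, W02H3.3 and F22H10.2, with pooled signals of 2431, 2445, 3140, 3469 and 2509.

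**Figure D2:**
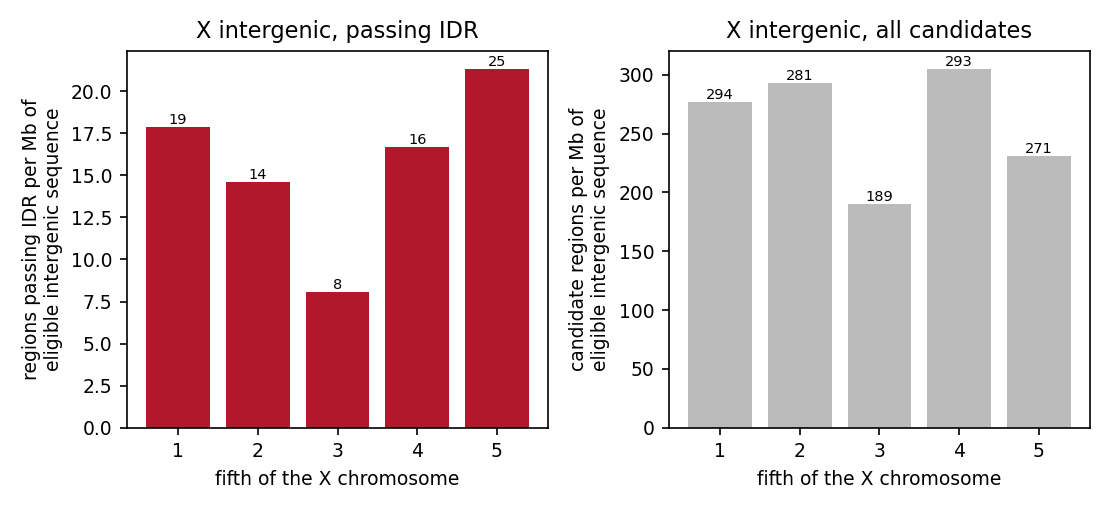
Regions per Mb of eligible intergenic sequence in each of 5 equal segments of X, for the regions that passed IDR (left) and for all candidates (right); numbers above the bars are counts of regions. The middle segment is lowest in both, at 8.06 and 190 per Mb.

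The replicates ranked the highest regions alike and the weak ones less so. Of all 1328 X intergenic regions, 970 overlapped a candidate of replicate 4, 1025 one of replicate 5 and 752 both (56.6%, 95% exact interval 53.9–59.3), near the 56% of all nuclear candidates. All 82 that passed IDR overlapped a candidate in both, as did 969 of all 976 nuclear regions that passed (99.3%). Across those 82 X intergenic regions Spearman's rho between the replicate signals was 0.805, and across the 752 it was 0.558. Across all 16772 nuclear candidates found in both it was 0.448. The 82 were kept by a step that weighs agreement between ranked lists, so these values are descriptions. The summits of the 17 high regions differed between replicates by a median of 12 bp, and each of the 17 ranked 25th or higher among the nuclear regions of either list. The 17 were chosen by a pooled signal that draws on both replicates, so their high ranks follow in part from that choice.

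Lower down the order of the replicates differed. Of the 82 regions, 69 overlapped one of the nuclear regions from the 1030 highest rows of replicate 4 and 73 from those of replicate 5. The region near C33E10.8 had a signal of 18.1 in replicate 4, where it ranked 17894, and of 131 in replicate 5, where it ranked 232. The highest X intergenic region without a candidate in replicate 4 was near F52D1.2, with a pooled signal of 85.1 and 65.0 in replicate 5. The highest without one in replicate 5 was near T23F2.3, at 79.5 pooled and 26.8 in replicate 4. Neither passed IDR.

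**Figure D3:**
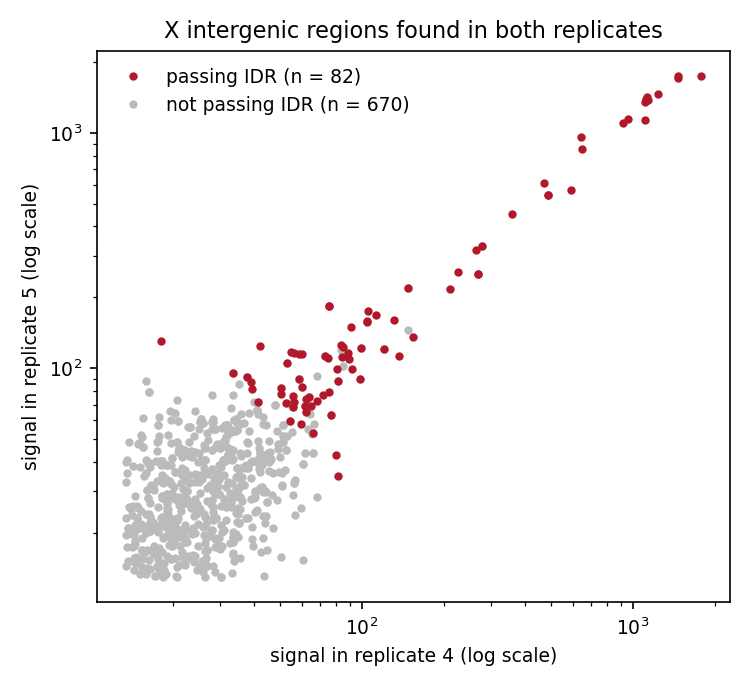
Signal in replicate 5 against signal in replicate 4 for the 752 X intergenic regions with a candidate in both lists, on log scales; each point is 1 region, and the 82 that passed IDR are in red. The highest points lie close to 1 line, and the weak ones form a cloud.

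The rule for position kept all members away from protein-coding starts, and the 20 highest lay mostly beyond the far end of the gene with the nearest such start. Among these 20, the summit was between 1018 and 6044 bp from the nearest protein-coding start, with a median of 3534 bp, and the median was 2899 bp for the 82 regions that passed IDR and 2595 bp for all 1328. It lay upstream of that start at 6 of the 20 and beyond the gene's other end at 14. Upstream positions made up 48.8% of the 82 regions that passed IDR and 67.3% of all 1328. Gene pairs reading away from each other flanked 0 of the 20 highest, 11 of the 82 (13.4%) and 339 of the 1328 (25.5%). Pairs reading towards each other flanked 9 of the 20, 21 of the 82 (25.6%) and 198 of the 1328 (14.9%).

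Of the 116 autosomal intergenic regions that passed IDR, 62.9% lay upstream of the nearest start, and 19.8% lay between genes reading away from each other. A non-coding gene lay within 200 bp of the summit at 5 of the 82 X regions (6.10%) and at 29 of those 116 autosomal ones (25%). The share was 11.9% of all 1328 X intergenic regions and 10.7% of all 3219 autosomal intergenic ones. The nearest starts of the 82 belonged to 74 genes, 8 of them counted for 2 regions each.

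The core letters GCGCAGGG were the main sequence sought, within 150 bp of each summit and on both strands. A match describes the letters in the window and does not show that a protein binds there. They were present at 12 of the 82 X intergenic regions that passed IDR (14.6%, 95% exact interval 7.80–24.2) and at 5 of the 1246 that did not (0.401%). The share was 0.19% over all nuclear candidates, 57 of 29925. Of the 116 autosomal intergenic regions that passed IDR, 0 had them, which allows a share of up to 3.13%. X promoter windows that passed IDR had them at 4 of 127 (3.15%) and X regions inside genes at 5 of 79 (6.33%).

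Within the list the matches lay mainly at the top. The letters were present at 7 of the 17 regions with a signal over 800 (41.2%, 18.4–67.1) and at 5 of the other 65 that passed IDR (7.69%, 2.54–17.0). The 12 regions with the letters had a median pooled signal of 1100, and the 70 without them 177. The 15 matches at the 12 regions had their centres a median of 24.5 bp from the summit, and 10 of them were within 50 bp. CGCAGGGA, which overlaps the core by 7 letters, was also present at 12 of the 82, at 9 of the 17 and at 0.284% of all nuclear candidates.

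**Figure D4:**
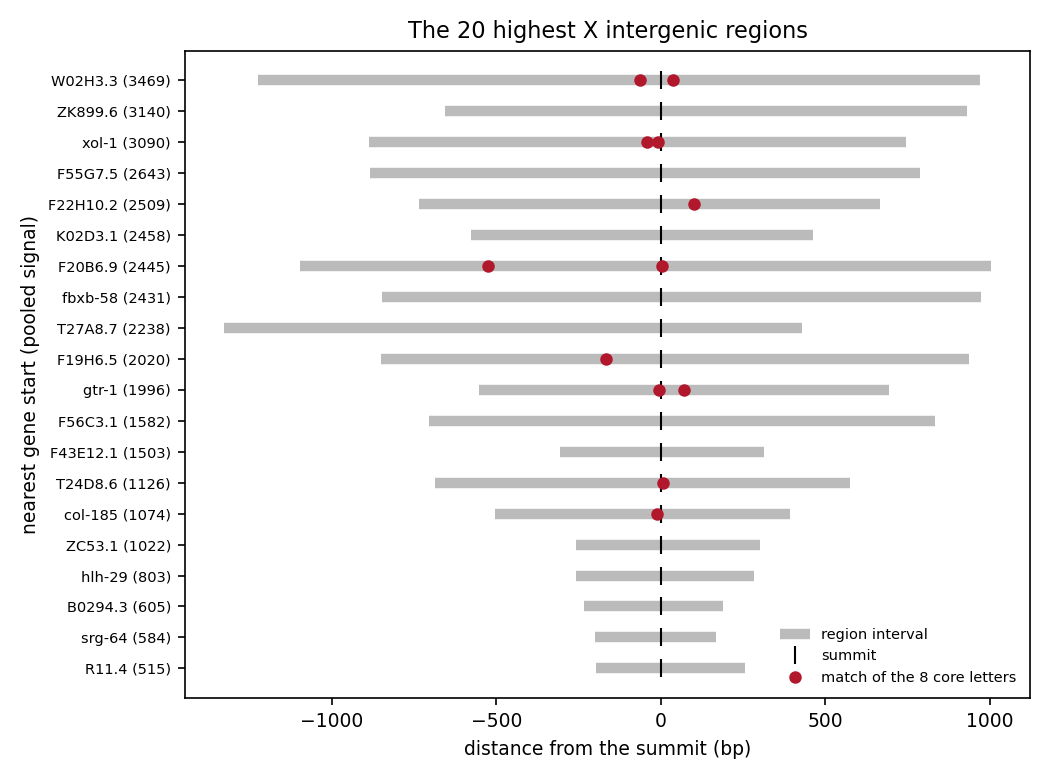
Extent of each of the 20 highest X intergenic regions (grey bar) around its summit (black tick), with matches of the 8 core letters inside the interval as red points, in bp from the summit; rows run from the highest signal down and name the nearest gene start. Of the matches, those of the xol-1, F20B6.9, gtr-1, T24D8.6 and col-185 regions include one at most 10.5 bp from the summit. At 6 of the 20 the interval overlaps a gene.

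Letters beside the core also differed with height. TC stood before 8 of the 10 matches at the 17 high regions. It stood before 0 of the 5 at the other regions that passed IDR and before 0 of the 5 at those that did not. The 10 matches lay at 7 of the 17 regions, so they were not all separate. TC is part of the 12 letters taken from the highest region after the matches had been seen, so this contrast is a description. With 1 mismatch allowed, 14 of the 17 high regions held the core (82.4%, 56.6–96.2), as did 22 of the other 65 (33.8%, 22.6–46.6). Among other regions that passed IDR the share was 18.9% for X promoter windows, 13.9% inside X genes and 12.1% for autosomal intergenic regions, and it was 7.20% for all nuclear candidates. At 10 of the 17 high regions 10 or more of the 12 letters TCGCGCAGGGAG were present, against 7 of the other 65 (10.8%). They were present at 7.59% of the regions inside X genes that passed IDR and 3.94% of those in X promoter windows. The share was 1.72% for the 116 autosomal intergenic regions and 0.832% for all nuclear candidates. These other classes were not split by signal, either for the core or for the 12 letters. Only 4 regions inside X genes and 2 in X promoter windows had a signal over 800, and the share among them was not computed. The 10 high regions include that near W02H3.3, from which the 12 letters were taken. Both the letters and the signal boundary of the 17 were chosen after values had been seen. The contrasts in these 12 letters therefore follow in part from the choice and are descriptions.

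**Figure D5:**
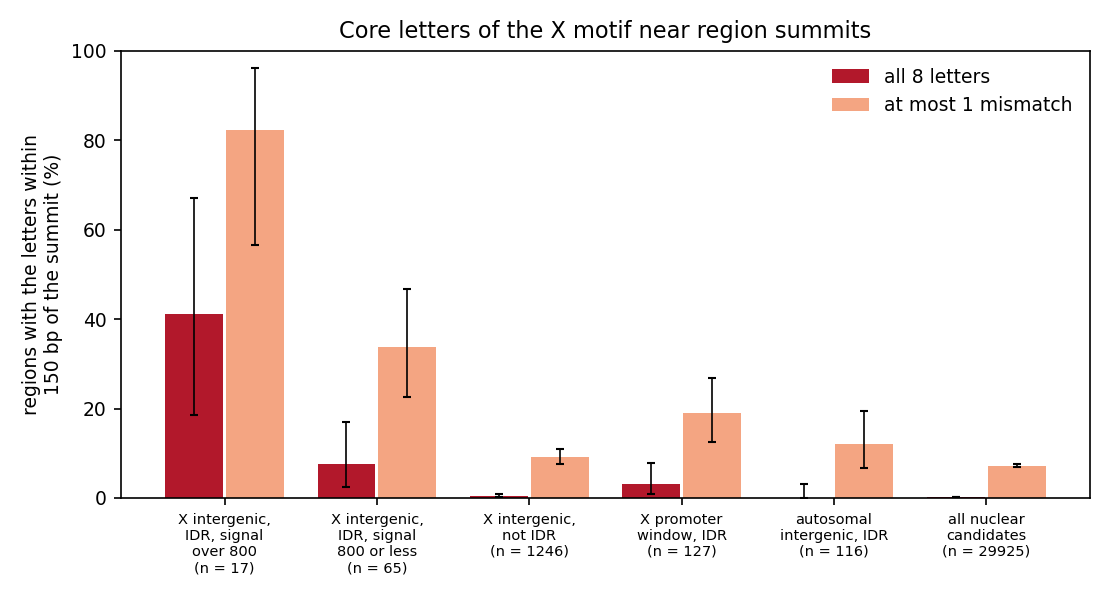
Share of regions with the 8 core letters within 150 bp of the summit, in percent, exact (dark bars) and with at most 1 mismatch (light bars); error bars are 95% exact intervals and cover the counting of regions only. X intergenic regions with a signal over 800 reach 41.2% and 82.4%, and all nuclear candidates 0.19% and 7.20%. Only the X intergenic regions that passed IDR are split by signal.

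Read from the side of the genome, few copies of the core off X lay in a strong region. X held 81 copies of GCGCAGGG on both strands (4.57 per Mb) and the autosomes 233 (2.82 per Mb). Of the 81 on X, 28 lay inside a region that passed IDR (34.6%, 95% exact interval 24.3–46.0), against 2 of the 233 on autosomes (0.858%, 0.104–3.07). In intergenic sequence alone the counts were 16 of 32 on X and 0 of 48 on the autosomes. Copies preceded by TC lay in such a region at 13 of 19 places on X (68.4%, 43.4–87.4). On the autosomes the count was 0 of 6, which allows a share of up to 45.9%. TC was taken from the highest region, so the count on X includes the match it came from. Neither the letters nor the height came with the other in every case. Of the 22 copies in X intergenic sequence that a candidate covered, 16 lay in a region that passed IDR. Of the 17 high regions, 10 lacked the exact core within 150 bp, and the F19H6.5 region among them held a copy at -165.5 bp.

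Of 4 unrelated sequences sought, none was found at the high regions. The GAGA repeat GAGAGAGA and the E-box CACGTG were present at 0 of the 17, which allows a share of up to 19.5% for each. At the other 65 regions that passed IDR they were present at 8 (12.3%, 5.47–22.8) and 11 (16.9%, 8.76–28.3), against 4.90% and 7.90% of all nuclear candidates. Of all nuclear regions that passed IDR, 14.1% had GAGAGAGA and 11.2% had CACGTG. GAGAGAGA was present at 30 of the 116 autosomal intergenic regions that passed IDR (25.9%, 18.2–34.8). The heat shock element TTCTAGAA lay near 1 of the 82 regions and the telomere repeat TTAGGCTT near 0, against 1.49% and 1.41% of all nuclear candidates.

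Base composition depended on the window. Within 150 bp of the summit the median GC content was 37.9% for the 17 high regions, 42.2% for the other 65 that passed IDR and 38.2% for all 1328, against 44.4% for the 116 autosomal intergenic regions. Within 50 bp it was 42.6% for the 17, 44.6% for the other 65 and 38.6% for all 1328, against 48.5% for the 116. Soft-masked bases mark repeats and low-complexity sequence in the RefSeq assembly, and their order turned with the window. Their median share was 32.9% for the 17 and 20.3% for the other 65 within 150 bp, but 5.94% for the 17 and 11.9% for the other 65 within 50 bp. No masked base lay within 50 bp of the summit at 8 of the 17 (47.1%) and at 28 of the other 65 (43.1%).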

How the data were processed

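The study was 1 group of 2 biological replicates, per the labels, so no conditions were compared and no p-value was computed. Per the listings that the authors deposited, candidates were called for each replicate and for the pooled reads, with a control alignment, and the IDR list came from these. The sources used here name neither the calling software nor the IDR threshold. The authors deposited a signal value for each summit, on a scale that is not stated, which was used to rank regions within a list. The −log10 q column that the authors deposited stood at its ceiling of 2.89 for all 1030 summits that passed IDR and was not used. Each candidate list stops at 30000 summits, and depth is unknown.

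Rows sharing an interval were merged to that of highest signal, and the 12 mitochondrial regions were left out. Genes were those of Ensembl release 115 for WBcel235, and sequence came from the RefSeq assembly WBcel235 (the build of ce11), whose chromosome lengths were checked against the lists. A region was assigned to the nearest protein-coding start. Intervals of shares are exact (Clopper-Pearson, 95%).

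The regions, lists, motifs and naming rule were chosen with earlier results of these data known. Named were the 20 highest regions, the highest of each of 5 equal segments of X and without a candidate in either replicate, 3 on each side of the IDR boundary, and those nearest to 6 listed genes of sex determination and dosage compensation. The boundary at a signal of 800, the 12-letter word and other regions named were chosen after values were seen. Alternatives were either replicate alone, stricter and looser thresholds, other promoter windows, protein-coding genes only, other overlap criteria, other motif windows and 1 mismatch. Class and overlap steps were tested on simulated data. Scripts ran in Python 3.11.15 (scipy 1.17.1, pandas 2.3.3, matplotlib 3.10.9, numpy 2.4.6).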

Additional observations from a re-analysis of the deposited data

How the results depend on the processing

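No paired analysis was possible because the study has 1 group. X intergenic strong regions were denser than autosomal intergenic ones, per Mb of eligible sequence, in the main setting and all 8 alternatives, by 1.94 to 3.90 times. With the 515 highest rows passing IDR, 50 X intergenic regions remained (9.72 per Mb), and the 2000 highest pooled rows gave 144 (28.0 per Mb), by construction of the thresholds. Either replicate alone gave 79 to 86 regions and a share with GCGCAGGG of 15.1% to 15.2%.

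Support by both replicates fell to 43.3% of all X intergenic regions with summits within 200 bp, and to 46.5% (93.9% of those passing IDR) when 50% of the interval had to overlap. With 1 mismatch, 43.9% of the 82 regions held GCGCAGGG and 43.9% CGCAGGGA, 53.7% GAGAGAGA, 70.7% CACGTG, 18.3% TTCTAGAA and 7.32% TTAGGCTT, where all nuclear candidates had 7.20%, 10.5%, 27.5%, 60.2%, 22.3% and 15.7%. A search within 50 bp found GAGAGAGA at 3.66% and CACGTG at 3.66%. Without one replicate TTCTAGAA ranged from 0% to 1.27%. The median masked share of the 82 was 8.42% within 50 bp of the summit and 22.4% within 150 bp, while that of all nuclear candidates was 18.8% and 21.6%. A looser match or narrower window can only raise or lower a motif's share by construction. For the masked share, replicate support and TTCTAGAA without a replicate the cause was not tested. Depth is unknown, so the precision of single regions is unknown.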

Other observations

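Candidates on X that met the rule except for a tRNA gene within 200 bp numbered 69. Of these, 22 passed IDR (31.9%, 95% exact interval 21.2–44.2), against 3.26% of all nuclear candidates. The 22 had a median pooled signal of 252 and a highest of 668, and 0 of them were wider than 444 bp.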
